A study of Homo sapiens with 18 samples.

Results

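NEAT1, MALAT1 and 8 long noncoding RNAs that host small nucleolar RNAs (GAS5, SNHG1, SNHG5, SNHG8, SNHG12, SNHG15, ZFAS1 and EPB41L4A-AS1) were followed in PANC-1 cells after knockdown or inhibition of PKR, the double-stranded-RNA-activated kinase encoded by EIF2AK2. These 10 genes were found by their symbols among the 26485 genes of both expression tables, and they had been picked with the measured values of these libraries known, so their levels and fold changes are a description and carry no p-value. PANC-1 is an established epithelial line from a human pancreatic ductal carcinoma, and it was the only line sequenced. The 18 RNA-seq libraries formed 6 groups of 3. One arm held a control siRNA and separate PKR siRNAs called 1 and 2, each collected 72 h after transfection, and the other held DMSO, 400 nM C16 and 800 nM C16, a small-molecule PKR inhibitor, after 72 h of treatment. The arms were sequenced in different runs and normalized apart, so a run effect and the kind of agent cannot be told apart, and values were compared only within an arm's table.

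NEAT1 is the long RNA around which paraspeckles, ribonucleoprotein bodies of the nucleus, are built, and MALAT1 is a long RNA stored in nuclear speckles, where splicing factors gather. The 8 host genes carry small nucleolar RNAs (snoRNAs), guides for the chemical modification of ribosomal RNA, in their introns. Once the introns are removed, the spliced host RNA is exported, bound by ribosomes on its short open reading frames and destroyed by nonsense-mediated decay, a pathway that depends on translation. PKR phosphorylates the initiation factor eIF2α, which lowers translation. In PANC-1 cells, however, the paper reports no change of eIF2α phosphorylation with PKR knockdown or C16.

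Reads on genes numbered 1512940 to 1873906 per siRNA library and 894145 to 1474308 per C16 library. Of these, 0.136% to 0.188% fell on genes whose names begin with MT-, MTRNR2L or MTATP. That share goes by name alone and does not measure mitochondrial content. EIF2AK2 stood at 95.5, 93.5 and 103 TMM-normalized counts in control siRNA libraries, at 10.0, 13.6 and 9.65 with PKR siRNA 1 and at 7.96, 8.58 and 9.40 with PKR siRNA 2, so all libraries treated with either siRNA lay below the controls (limma log2 fold changes -3.04 and -3.35, SE 0.25 each). C16 left it at 45.7, 39.2 and 42.6 (400 nM) and 51.4, 48.7 and 49.6 (800 nM), which overlapped the 45.7, 49.5 and 54.1 of DMSO. The keratins KRT8, KRT18 and KRT19 were abundant and EPCAM and CDH1 were low but detected. Their summed level differed between groups, at 5339 to 5436 in control siRNA, 3042 to 3270 in PKR siRNA 1 and 9584 to 10227 in PKR siRNA 2 libraries, and at 7171 to 7566 with DMSO, 6031 to 6543 with 400 nM and 5169 to 5680.0 with 800 nM C16. Of 8 markers of other cell types, PTPRC, CD3E and DCN were at 0 in all 18 libraries, the 3 leukocyte markers summed to at most 4.86 and the 2 endothelial markers to at most 1.07. The fibroblast markers summed to 24.5 to 29.99 with PKR siRNA 1, to 84.2 to 114 with control siRNA and to 118 to 134 with PKR siRNA 2, and to 148 to 184, 119 to 179 and 78.2 to 116 with DMSO, 400 nM and 800 nM C16, all of it COL1A1 and COL3A1. Whether these shifts of marker levels have a part in the results below was not tested.

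The sequences around the annotated start of each host gene are shown because genes of this class are the textbook carriers of a terminal pyrimidine run, a stretch of C and T at the start of the RNA through which translation is regulated. Each window below holds 50 bases of hg38 on the transcribed strand, with the annotated first base as its 21st letter, and the capitals mark the longest run of C or T that touches the 21 bases centred on that first base. GAS5 is read from chr1:173867958-173868007 (minus strand), SNHG1 from chr11:62855859-62855908 (minus), SNHG5 from chr6:85678704-85678753 (minus), SNHG8 from chr4:118278742-118278791 (plus), SNHG12 from chr1:28581825-28581874 (minus), SNHG15 from chr7:44986631-44986680 (minus), ZFAS1 from chr20:49278158-49278207 (plus) and EPB41L4A-AS1 from chr5:112160506-112160555 (plus).
GAS5: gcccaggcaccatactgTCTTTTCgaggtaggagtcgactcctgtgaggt
SNHG1: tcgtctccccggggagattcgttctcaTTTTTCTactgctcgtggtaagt
SNHG5: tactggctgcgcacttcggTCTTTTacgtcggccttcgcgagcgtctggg
SNHG8: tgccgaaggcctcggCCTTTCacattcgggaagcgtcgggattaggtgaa
SNHG12: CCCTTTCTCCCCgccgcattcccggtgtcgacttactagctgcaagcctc
SNHG15: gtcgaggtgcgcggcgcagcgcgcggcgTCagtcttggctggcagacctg
ZFAS1: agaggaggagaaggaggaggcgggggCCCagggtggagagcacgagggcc
EPB41L4A-AS1: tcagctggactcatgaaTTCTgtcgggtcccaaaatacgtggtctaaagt
The first 5 of these have a run of 6 or more pyrimidines there, from 6 bases in SNHG5 and SNHG8 to 12 in SNHG12, and the last 3 have runs of 2 to 4. The run of SNHG12 ends before the annotated first base and that of SNHG1 begins after it. NEAT1 and MALAT1, with runs of 3 and 5, do not reach 6 either, and among all 25032 annotated starts 29.5% hold a run of at least 6. A match describes the letters only, since the place where transcription starts in these cells was not measured.

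The promoters of NEAT1 and MALAT1 are shown because these RNAs were the most changed of the abundant members and lie near each other on chromosome 11. NEAT1 is a single exon of 22741 bases at chr11:65422798-65445538 and MALAT1 a single exon of 8751 bases at chr11:65497762-65506512, both on the plus strand. Each sequence runs from 250 bases before the annotated first base to 50 bases from it, at chr11:65422548-65422847 and chr11:65497512-65497811 of hg38. Capitals mark TATAA, searched on both strands.
NEAT1: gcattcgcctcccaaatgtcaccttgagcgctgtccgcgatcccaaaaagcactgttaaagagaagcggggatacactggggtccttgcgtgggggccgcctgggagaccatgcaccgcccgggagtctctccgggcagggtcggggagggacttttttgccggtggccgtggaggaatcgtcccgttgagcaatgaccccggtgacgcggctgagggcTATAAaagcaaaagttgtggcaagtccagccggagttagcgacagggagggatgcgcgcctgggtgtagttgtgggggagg
MALAT1: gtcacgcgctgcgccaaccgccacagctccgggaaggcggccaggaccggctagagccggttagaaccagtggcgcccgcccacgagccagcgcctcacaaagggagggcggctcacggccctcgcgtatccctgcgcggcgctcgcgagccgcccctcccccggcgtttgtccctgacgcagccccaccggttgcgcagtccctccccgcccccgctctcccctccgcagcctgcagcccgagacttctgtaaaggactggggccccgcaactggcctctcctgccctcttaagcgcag
TATAA lies in the 300-base window of NEAT1 and of 5 host genes (GAS5, SNHG1, SNHG5, SNHG8 and SNHG12), 6 of 10 in all, against 20.3% of the windows of 25032 genes, and it is not in the MALAT1 window. In GAS5 and SNHG1 the match is on the opposite strand, and that of SNHG1 lies after the annotated first base. Such a match need not be a promoter element. The E-box CACGTG is in 1 of the 10 windows, that of GAS5, against 7.62% of all. The letters TGATGNAA are in 0 of the 10 and in 3.15% of all.

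The level needed to enter the fit, a table mean of 10 normalized counts, was met by all 10 genes in the siRNA arm and by 9 in the C16 arm, where EPB41L4A-AS1 missed it. Called here means a Benjamini-Hochberg adjusted p under 0.05 over all fitted genes and a fold change over 1.5 in limma, on the log2(normalized count + 1) scale, which understates the change of low genes. With PKR siRNA 1, 2 of the 10 were past both thresholds, both higher, beside 21.1% of 10593 genes in either direction (8.53% higher and 12.6% lower), and 5 of the 10 did not overlap the controls beside 51.7% of all genes. With PKR siRNA 2 the counts were 4 of 10, each higher, beside 23.5% (10.8% higher, 12.8% lower), and 6 of 10 without overlap beside 54.3%. With 400 nM C16 every one of the 9 fitted members lay within 1.5-fold of DMSO, while 12.5% of 9963 genes were called (7.08% higher, 5.45% lower), and 2 of 9 did not overlap DMSO beside 39.6%. With 800 nM C16, 3 of 9 were past both thresholds, 1 higher and 2 lower, beside 25.7% (11.6% higher, 14.1% lower), and 4 of 9 did not overlap DMSO beside 51.8%. Since the members were chosen from these values, nothing is read from those shares. The comparisons of either siRNA share the control libraries, and those of either dose share the DMSO libraries.

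**Figure D1:**
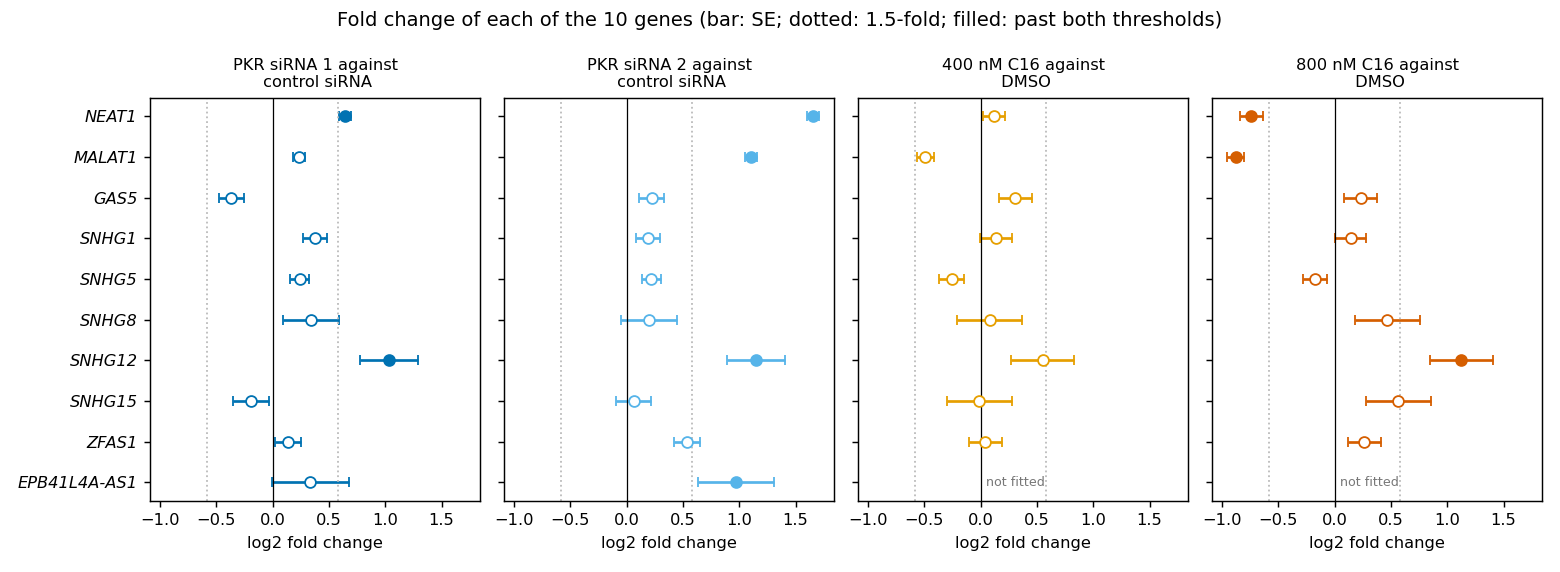
Log2 fold change (x axis) of the 10 genes (y axis) in the 4 comparisons with a control, with the SE of the fit as bars, the 1.5-fold lines dotted, and filled points for genes past both thresholds. NEAT1 and MALAT1 lie to the right with PKR siRNA 2 and to the left with 800 nM C16, and SNHG12 lies to the right in both.

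NEAT1 was higher with each PKR siRNA and lower with the higher dose of C16. It stood at 621, 545 and 658 normalized counts in control siRNA libraries, at 969.7, 912 and 957 with PKR siRNA 1 and at 2009, 1944 and 1789.7 with PKR siRNA 2. The 3 groups did not overlap, with control siRNA lowest and PKR siRNA 2 highest. The log2 fold change against control was 0.64 (SE 0.06, 1.56-fold) for PKR siRNA 1 and 1.66 (SE 0.06, 3.15-fold) for PKR siRNA 2, and both were past the thresholds. The former was 0.56 when the second control siRNA library was left out, under 1.5-fold. The siRNAs, which share their target, differed in NEAT1 by 1.01 (SE 0.06, 2.02-fold), and 3 of the 10 genes were past both thresholds between them beside 31.7% of all genes.

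In the C16 table NEAT1 stood at 302, 279.99 and 377 normalized counts with DMSO, at 414, 296 and 332 with 400 nM and at 212, 194 and 166 with 800 nM. The libraries of the lower dose overlapped those with DMSO, and the libraries of the higher dose lay below both. The log2 fold change was 0.12 (SE 0.10) at 400 nM and -0.74 (SE 0.10, 1.67-fold lower) at 800 nM. Between the doses it was -0.86 (SE 0.10, 1.81-fold lower at 800 nM), which made NEAT1 the 1 member of 9 past both thresholds there, beside 5.09% of all genes.

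MALAT1 was higher with PKR siRNA 2 and lower with C16, in order of dose. It stood at 1350.3, 1480.4 and 1832 normalized counts in the control siRNA group, at 1856, 1733 and 1858 with PKR siRNA 1 and at 3027, 3473 and 3459 with PKR siRNA 2. The PKR siRNA 1 libraries overlapped the controls through the third control library, and the PKR siRNA 2 libraries lay above both other groups. The log2 fold change was 0.24 (SE 0.05) for PKR siRNA 1 and 1.10 (SE 0.05, 2.15-fold) for PKR siRNA 2, the latter past both thresholds, and the siRNAs differed by 0.87 (SE 0.05, 1.82-fold).

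With C16, MALAT1 went from 603, 571 and 586 normalized counts in DMSO libraries to 454, 415 and 387 at 400 nM and 319, 335 and 304 at 800 nM. None of these 3 groups overlapped another. The log2 fold change was -0.49 (SE 0.08, 1.40-fold lower) at 400 nM, which did not reach 1.5-fold, and -0.88 (SE 0.08, 1.84-fold lower) at 800 nM, which did. Between the doses it was -0.39 (SE 0.08). In bulk RNA, fewer cells that hold an RNA and less of it in each cell cannot be told apart.

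**Figure D2:**
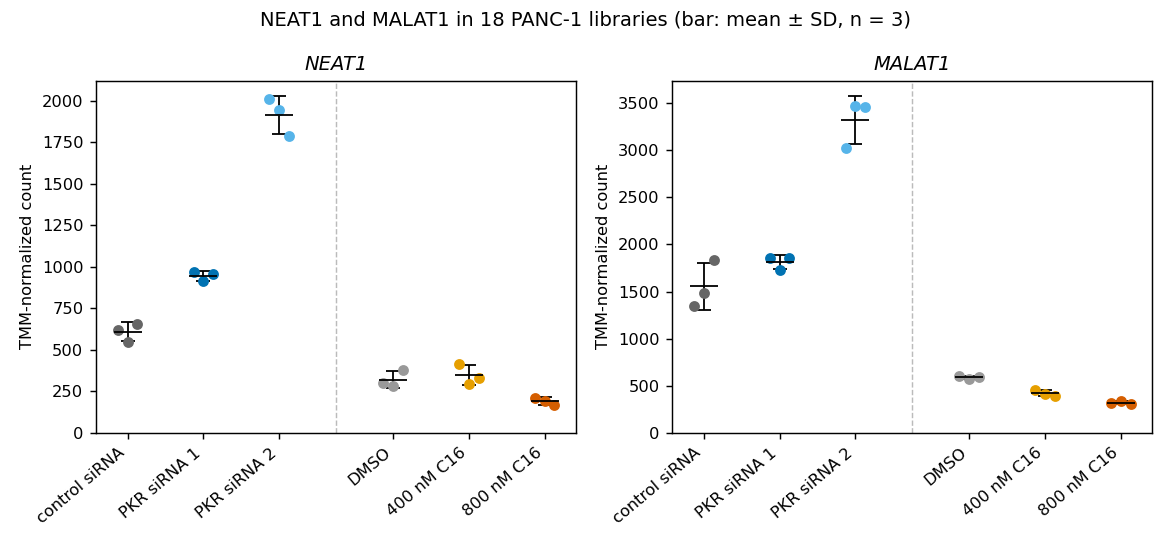
TMM-normalized counts (y axis, from 0) of NEAT1 and MALAT1 in the 6 groups (x axis), with a point for each library and a bar for the mean ± SD of 3; the dashed line parts the tables, whose levels are not comparable. Both RNAs are highest with PKR siRNA 2 and, in the C16 table, lowest with 800 nM.

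NEAT1 and MALAT1 together took 0.125% ± 0.0167 (SD, n = 3) of the reads on genes in control siRNA libraries, 0.163% ± 0.00673 with PKR siRNA 1 and 0.303% ± 0.0121 with PKR siRNA 2. The share was 0.0812% ± 0.00461 with DMSO, 0.0686% ± 0.00835 with 400 nM and 0.0468% ± 0.00347 with 800 nM C16. Both RNAs thus made up well under 1% of each library. The count of MALAT1 per count of NEAT1 was 2.56 ± 0.335 for control siRNA, 1.92 ± 0.0205 for PKR siRNA 1 and 1.74 ± 0.217 for PKR siRNA 2. With C16 it was 1.86 ± 0.268 (DMSO), 1.22 ± 0.159 (400 nM) and 1.69 ± 0.168 (800 nM). The summed epithelial markers given above were likewise highest with PKR siRNA 2 and, in the C16 table, lowest with 800 nM, but with PKR siRNA 1 they lay below the controls, where NEAT1 lay above, and their part in these values was not tested.

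Per kilobase of exon, SNHG5 was the most abundant of the 10 in each group, at 404 ± 13.8 normalized counts per kb with control siRNA and 302 ± 22.9 with DMSO. In control siRNA libraries GAS5 (207 ± 28.8) and MALAT1 (178 ± 28.4) came next and differed by less than their summed SDs. ZFAS1 (101 ± 9.59) and SNHG1 (94.3 ± 2.10) followed, also within their spread, then SNHG15 (69.2 ± 6.76). The lowest were SNHG8 (31.6 ± 7.31), NEAT1 (26.7 ± 2.54), SNHG12 (18.1 ± 7.29) and EPB41L4A-AS1 (9.02 ± 4.83), where no neighbours in the order were further apart than their summed SDs. The count of NEAT1 is divided here by its 22741 exon bases, so its place in this order assumes captured RNA of that full length. Since the libraries were poly(A)-selected, RNA without a poly(A) tail would be missed, and where along the exon the reads lie was not tested. The values of NEAT1 and MALAT1 are therefore those of the captured RNA and not of the total. Whether the captured NEAT1 RNA is that which builds paraspeckles was not tested. With PKR siRNA 2, MALAT1 (379 ± 29.0) was second after SNHG5 (472 ± 26.1), and NEAT1 reached 84.2 ± 4.96 per kb.

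Among the host genes SNHG12, the host of 4 snoRNAs at chr1:28578538-28581854, differed most. It stood at 8.21, 12.9 and 19.0 normalized counts in the control siRNA group, at 33.3, 24.5 and 24.1 with PKR siRNA 1 and at 31.8, 29.0 and 27.3 with PKR siRNA 2. All libraries with either siRNA lay above the controls, by a log2 fold change of 1.03 (SE 0.26) and 1.15 (SE 0.26), past both thresholds, while the siRNAs overlapped each other. In the C16 table it stood at 10.7, 14.3 and 9.14 with DMSO, at 12.8, 21.9 and 17.0 with 400 nM and at 28.2, 20.7 and 28.6 with 800 nM. The 400 nM libraries overlapped DMSO (log2 fold change 0.55, SE 0.28; 0.71 without the second DMSO library and 0.74 without the first 400 nM library, both over 1.5-fold) and the 800 nM libraries lay above it (1.13, SE 0.28, past both thresholds). SNHG12 thus was higher with both siRNAs and with the higher dose, but these values rest on 8 to 32 reads a library.

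GAS5, which hosts 10 snoRNAs and is known as a growth-arrest RNA, parted the siRNAs. It stood at 127, 115 and 151 normalized counts in the control siRNA group, at 104, 97.1 and 101 with PKR siRNA 1 and at 144, 159.8 and 152 with PKR siRNA 2. PKR siRNA 1 libraries lay below the controls (log2 fold change -0.36, SE 0.11) and PKR siRNA 2 libraries overlapped them (0.22, SE 0.11). Between the siRNAs GAS5 differed by 0.59 (SE 0.11, 1.502-fold), at the very edge of the fold threshold. The difference was 0.57 with a pseudocount of 5, 0.56 without the second PKR siRNA 1 library and 0.55 without the second PKR siRNA 2 library, each under 1.5-fold. With DMSO it was 61.7 ± 9.27, with 400 nM C16 76.4 ± 8.78 and with 800 nM 72.1 ± 5.44 (SD, n = 3), and each dose overlapped DMSO.

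SNHG1 and SNHG5 were a little higher with both siRNAs. SNHG1, the host of 8 snoRNAs, stood at 108, 103 and 105 normalized counts in the control siRNA group, at 147, 139 and 126 with PKR siRNA 1 and at 115, 125 and 120.4 with PKR siRNA 2. Every treated library was above every control, by 0.38 (SE 0.11) and 0.19 (SE 0.11) on the log2 scale, and under 1.5-fold. SNHG5, the host of 2 snoRNAs, stood at 213, 199 and 204 with control siRNA, at 237, 233 and 259 with PKR siRNA 1 and at 251, 242 and 225 with PKR siRNA 2. Its treated libraries were also all above the controls, by 0.24 (SE 0.08) and 0.22 (SE 0.08). In the C16 table SNHG1 was 68.3 ± 9.43, 74.7 ± 1.36 and 75.1 ± 5.29 with DMSO, 400 nM and 800 nM, and the groups overlapped. SNHG5 went the other way there, at 153 ± 11.6, 128 ± 9.93 and 136 ± 11.9, with the 400 nM libraries below DMSO (-0.26, SE 0.11) and the 800 nM libraries overlapping it.

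ZFAS1, at chr20:49278178-49289258 with 3 snoRNAs, was 93.4, 106 and 113 normalized counts in the control siRNA group, 117, 122 and 106 after PKR siRNA 1 and 153, 124 and 181 after PKR siRNA 2. The PKR siRNA 2 libraries lay above both other groups and spread the widest, with a log2 fold change of 0.53 (SE 0.12, 1.449-fold) against control, under the threshold. That value was 0.67 without the second PKR siRNA 2 library and 0.59 without the third control library, both over 1.5-fold, and 0.41 without the third PKR siRNA 2 library. With C16 the 3 groups overlapped (65.5 ± 5.39, 67.6 ± 6.86 and 79.4 ± 12.9).

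SNHG8, SNHG15 and EPB41L4A-AS1 host 1 snoRNA each. SNHG8 ranged from 14.4 to 27.2 normalized counts in the siRNA table, with overlap throughout, and in the C16 table from 10.7 to 20.04, where the 800 nM libraries (17.1, 19.5 and 20.04) lay above DMSO by 0.47 (SE 0.29). SNHG15 overlapped the controls with each siRNA, at 55.6 ± 5.42, 48.5 ± 1.97 and 57.9 ± 2.24 for control, PKR siRNA 1 and PKR siRNA 2. At 800 nM its log2 fold change of 0.57 (SE 0.29) was 0.78 without the second DMSO library and 0.21 without the first, which had 10.7 against 24.8 and 22.1 in the others. EPB41L4A-AS1 stood at 4.11, 14.0 and 14.2 with control siRNA and at 17.9, 13.9 and 30.1 with PKR siRNA 2, groups that overlap although the log2 fold change of 0.97 (SE 0.34) was past both thresholds. Without the first control library it was 0.45, under 1.5-fold, and without the third PKR siRNA 2 library 0.68. With PKR siRNA 1 the values were 16.7, 12.7 and 8.68, which also overlapped the controls. In the C16 table this gene ranged from 4.25 to 16.0.

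**Figure D3:**
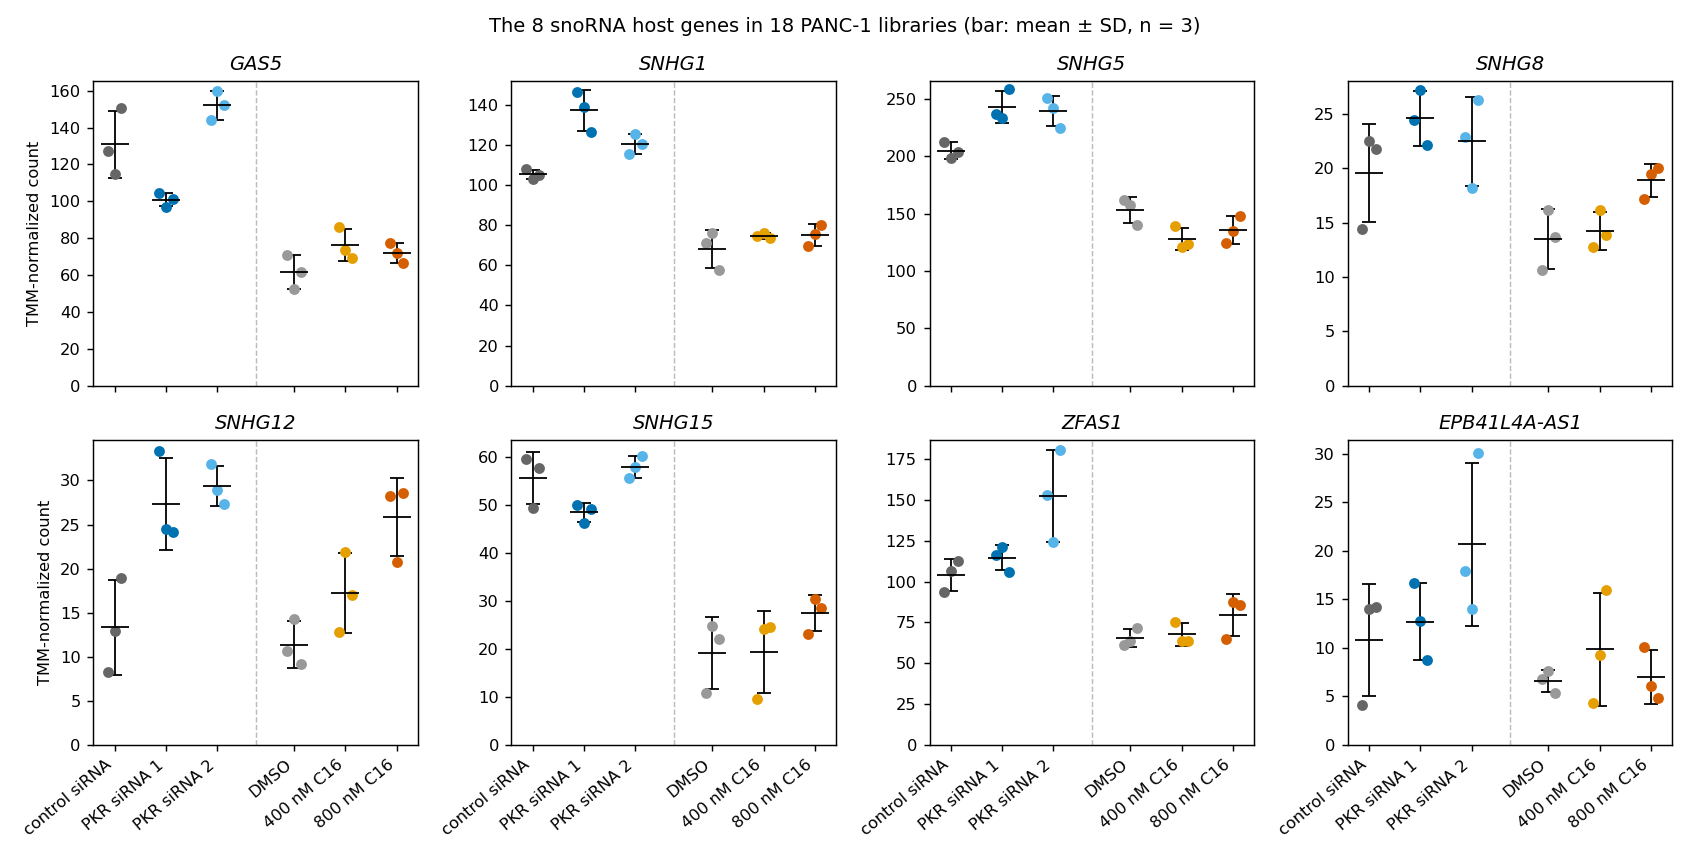
TMM-normalized counts (y axes, each from 0) of the 8 host genes in the 6 groups (x axis), with a point per library and a bar for the mean ± SD of 3; the dashed line parts the tables. SNHG12 lies above its control with both siRNAs and with 800 nM C16, while GAS5 is lower than its control with PKR siRNA 1.

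Added up, the 8 host genes came to 645 ± 35.1 normalized counts (SD, n = 3) for control siRNA, to 709 ± 17.3 for PKR siRNA 1 and to 795 ± 25.7 for PKR siRNA 2. In the C16 table the sums were 399 ± 16.0 with DMSO, 407 ± 6.94 with 400 nM and 442 ± 24.6 with 800 nM. The mean sum was thus highest with PKR siRNA 2 and with 800 nM C16 in their tables. The 800 nM libraries overlapped those of 400 nM, with 414.56 in the first 800 nM and 414.77 in the first 400 nM library. The highest DMSO library had 412.37. The median log2 fold change of the 8 hosts was 0.29 and 0.22 for the siRNAs, and for the 7 hosts fitted with C16 it was 0.08 at 400 nM and 0.26 at 800 nM, with the median of all genes within 0.02 of 0 in each. NEAT1 and MALAT1 were also highest with PKR siRNA 2, but in the C16 table they were lowest at 800 nM. The mean of the summed hosts was highest there.

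Over the 18 libraries, with the log2 values centred in each table, NEAT1 and MALAT1 correlated with r = 0.87, while their correlations with the 8 hosts ran from -0.25 (NEAT1 with SNHG15) to 0.51 (MALAT1 with SNHG5). Among the hosts the closest pairs were SNHG12 with SNHG8 (0.72) and SNHG12 with SNHG1 (0.65), and the least alike SNHG5 and GAS5 (-0.30), nearly the same as SNHG5 and SNHG15 (-0.29). These are descriptions over libraries that share treatments, runs and depth, and the values of SNHG8, SNHG12 and SNHG15 rest on few reads. Of 5275 other genes with a mean of 50 or more in both tables (5272 beside the host profile), those most like NEAT1 were SLC26A2 (r = 0.96), DDIT4 (0.95), ID1 (0.93), ITPR2 (0.93) and ZNF780B (0.93), and MALAT1 ranked 19. Those most like MALAT1 were ATF5 (0.96), MARCH8 (0.95), RPS12 (0.95), ID1 (0.94) and RAP1B (0.94), with NEAT1 ranked 63. ID1, an inhibitor of helix-loop-helix transcription factors, was on both lists. The mean profile of the 8 hosts was matched best by TPD52L2 (0.83), ODC1 (0.82), GSPT1 (0.79), ENAH (0.79) and THAP4 (0.78). That profile gives each host equal weight, also those with few reads. Like the correlations above, it includes EPB41L4A-AS1, which was too low for the C16 fit. ODC1 makes polyamines and GSPT1 is a translation release factor.

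The intronic snoRNAs themselves were nearly absent from these poly(A) libraries. The 8 hosts span 30 annotated snoRNA genes, 10 in GAS5, 8 in SNHG1, 4 in SNHG12, 3 in ZFAS1, 2 in SNHG5 and 1 in each of the others, and all 30 lie off the host exons. They are 43 to 134 bases long. None reached a mean of 10 normalized counts, the highest being SNORD80 of GAS5 with 7.74 with siRNA libraries and 2.37 with C16 libraries. The fold changes of the hosts are those of reads on host exons and do not describe the snoRNAs.

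Of the host genes 3 start within 2000 bases of a gene on the other strand. SNHG1 and SLC3A2, which encodes the heavy chain of amino-acid transporters, have first bases 124 bases apart and share no exon base. SLC3A2 stood at 158, 174 and 176 normalized counts with DMSO, at 388, 334 and 340.4 with 400 nM C16 and at 289, 327 and 266 with 800 nM. It rose at both doses by limma, with log2 fold changes of 1.06 (SE 0.09, adjusted p = 7.0e-15) and 0.79 (SE 0.09, adjusted p = 7.6e-11), where SNHG1 overlapped DMSO with 0.14 at each dose. With the siRNAs SLC3A2 stood within 1.5-fold of control (0.23 and 0.05), and SNHG1 at 0.38 and 0.19.

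ZFAS1 and ZNFX1, an antiviral RNA helicase gene, have first bases 41 bases apart and share 42 exon bases. ZNFX1 rose with PKR siRNA 2 by 0.59 (SE 0.09, limma adjusted p = 2.1e-07), beside the 0.53 of ZFAS1, and the largest values in the other comparisons were 0.21 for ZNFX1 with PKR siRNA 1 and 0.26 for ZFAS1 with 800 nM. The call on ZNFX1 lies at the 1.5-fold threshold, with 0.51 to 0.56 when the first control library, the third control library or the second PKR siRNA 2 library was left out, each under it. Because the sources used here do not state whether reads were counted by strand, reads in the 42 shared bases, 4.09% of the exons of ZFAS1, may belong to either gene. GAS5 and ZBTB37 have first bases 368 bases apart, and ZBTB37 did not pass the test with either siRNA (0.47, SE 0.35, limma adjusted p = 0.28 and 0.26) and was too low in the C16 table. GAS5-AS1 shares 41 bases with the exons of GAS5 and was too low to fit. TRNAU1AP shares 8 bases with SNHG12 and had -0.17 and 0.01 with the siRNAs and -0.32 and -0.58 with C16, with limma adjusted p from 0.043 to 0.98, which is the direction opposite to SNHG12 at 800 nM.

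**Figure D4:**
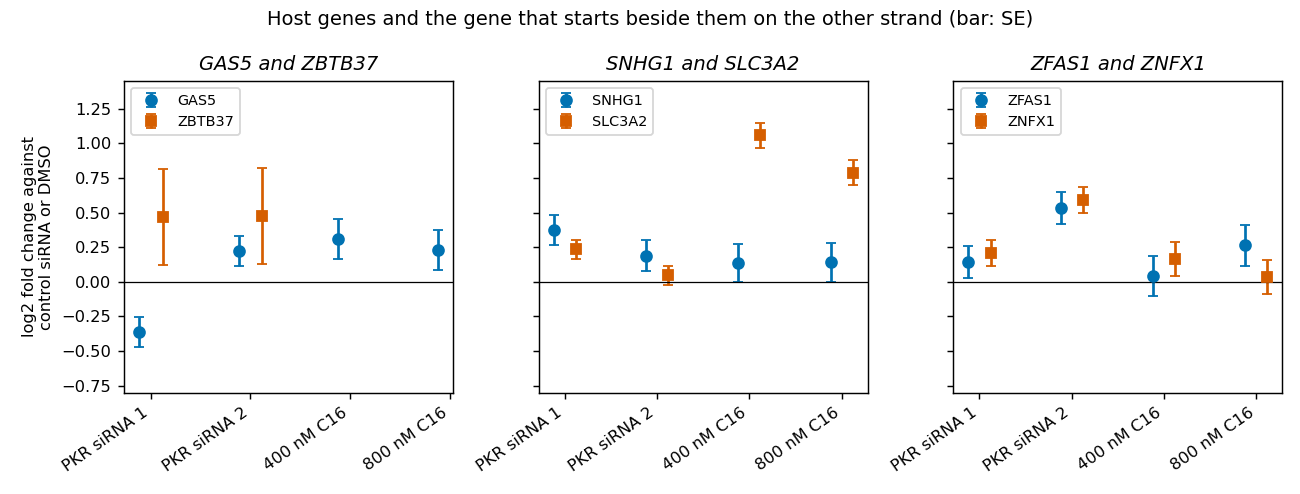
Log2 fold change against control siRNA or DMSO (y axis, with SE) of GAS5, SNHG1 and ZFAS1 (circles) and of the gene that starts beside each on the other strand (squares) in the 4 treated groups (x axis). SLC3A2 stands well above SNHG1 with both doses of C16, and ZNFX1 stands near ZFAS1 with PKR siRNA 2.

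The 6 gene lists that follow were also chosen with earlier results of these data known, and the genes named from them are mainly the largest called changes. Their adjusted p-values cover all fitted genes and do not allow for that choice. In either direction, limma called 21.1% and 23.5% of all fitted genes with PKR siRNA 1 and PKR siRNA 2. At 400 nM and 800 nM the shares were 12.5% and 25.7%. Of 21 other noncoding snoRNA hosts 12 could be fitted beside the siRNAs and 13 beside C16. PKR siRNA 1 had 2 that rose, PKR siRNA 2 had 4 that rose and 1 that fell, and 800 nM C16 had 2 that rose. At 400 nM limma called 0 of 13, with 2 at an unadjusted p under 0.05 and 0 called by edgeR or DESeq2. Median log2 fold changes were 0.21, 0.35, 0.10 and 0.35 for PKR siRNA 1, PKR siRNA 2, 400 nM and 800 nM, each against a median of all genes within 0.02 of 0. SNHG19 was at 9.24, 10.7 and 2.84 normalized counts in the control siRNA group, 29.99, 22.7 and 24.1 after PKR siRNA 1 and 18.9, 20.4 and 17.9 after PKR siRNA 2. It rose by 1.77 (SE 0.31, limma adjusted p = 1.9e-06) and 1.37 (SE 0.31, adjusted p = 0.00016). At 800 nM it rose by 1.05 (SE 0.30, limma adjusted p = 0.0032), although its values of 14.1, 35.3 and 37.2 overlapped the 16.5, 13.3 and 8.38 of DMSO, and the call was lost without the third library of that dose, when the value was 0.82. SNHG16 fell with PKR siRNA 2 by 0.92 on the log2 scale (SE 0.09, limma adjusted p = 1.5e-15), from 308 ± 11.7 to 162 ± 13.8, unlike the 8 hosts above, each of which had a positive fold change there.

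The 39 fitted protein-coding snoRNA hosts, mostly genes of ribosomal proteins and translation factors, also went both ways. PKR siRNA 1 had 1 that rose and 1 that fell, PKR siRNA 2 had 3 that rose, and 800 nM C16 had 1 that rose and 3 that fell, while limma called 0 at 400 nM (27 at an unadjusted p under 0.05, and 0 by edgeR or DESeq2). DKC1, the pseudouridine synthase of H/ACA snoRNA complexes, rose with both siRNAs by 0.73 (SE 0.06) and 0.67 (SE 0.06), with limma adjusted p of 1.4e-16 and 5.8e-15. RPL10 and RPS12, ribosomal proteins, rose with PKR siRNA 2 by 0.65 (SE 0.04) and 0.73 (SE 0.05). RPL10 fell by 0.64 on the log2 scale (SE 0.06, limma adjusted p = 9.3e-13) at 800 nM, and RPS12 had -0.50 there, which is the order of signs that NEAT1 and MALAT1 showed. The RPL10 call was lost without the first 800 nM library, with -0.56. RPS3 fell with PKR siRNA 1 only just past the threshold, by 0.61 on the log2 scale (limma adjusted p = 6.7e-19), and had 0.57 and 0.58 in size without the third control library or the third PKR siRNA 1 library. WDR43, a nucleolar factor, rose at 800 nM by 0.64 (SE 0.11, limma adjusted p = 2.7e-06), with 0.58 and no call without the second DMSO library.

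The 18 factors of nonsense-mediated decay, the pathway that removes spliced host RNAs, had medians of -0.02, 0.10, -0.09 and -0.03 in the same order. With PKR siRNA 1, 1 fell, CASC3 of the exon junction complex, by 0.71 (SE 0.09, limma adjusted p = 6.3e-11). With PKR siRNA 2, 1 rose and 2 fell. SMG5 rose by 1.01 (SE 0.07, limma adjusted p = 1.4e-22). PNRC2, a decapping adaptor, fell with PKR siRNA 2 by 0.61 (SE 0.08), which without the first control library was 0.55 and no call, and with 800 nM C16 by 0.95 (SE 0.12, limma adjusted p = 7.7e-10), where 3 of the 18 fell. At 400 nM limma called 0 of 18 with 6 at an unadjusted p under 0.05, and edgeR and DESeq2 called 1 each, PNRC2, whose limma value of -0.58 lay at the 1.5-fold line.

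The 17 mRNAs known as targets of the same decay moved in both directions. PKR siRNA 1 had 1 that rose and 1 that fell, PKR siRNA 2 had 4 and 1, 400 nM C16 had 2 that rose, and 800 nM C16 had 2 that rose and 4 that fell. ATF4, the transcription factor of the integrated stress response, rose with both siRNAs and with 400 nM, by 1.16 (SE 0.07), 0.81 (SE 0.07) and 0.70 (SE 0.08), with limma adjusted p from 2.2e-23 to 8.8e-10, and had 0.16 (adjusted p = 0.11) at 800 nM. UPP1, uridine phosphorylase, rose with 400 nM by 1.27 (SE 0.08) and with 800 nM by 1.12 (SE 0.08), with limma adjusted p of 1.1e-19 and 8.2e-18. GABARAPL1, an autophagy gene, rose with PKR siRNA 2 by 1.56 (SE 0.19, limma adjusted p = 1.5e-10). PTBP2, a splicing regulator, fell with both siRNAs by 1.16 (SE 0.25) and 1.57 (SE 0.25), with limma adjusted p of 9.4e-05 and 2.2e-07. TBL2 fell at 800 nM by 0.83 (SE 0.17, limma adjusted p = 6.8e-05). The list as a whole therefore had no single direction, with medians of -0.03, 0.10, -0.28 and -0.18.

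Of 15 paraspeckle and speckle proteins, among them NONO and SFPQ, which bind NEAT1, limma called 0 in each of the 4 comparisons, as did edgeR and DESeq2, although 9, 6, 5 and 7 had an unadjusted p under 0.05 in the order above. Their log2 fold changes lay between -0.56 and 0.39 and their medians between -0.14 and -0.06. The protein genes of these bodies thus stayed within 1.5-fold where the NEAT1 reads of these poly(A) libraries differed 3.15-fold, with PKR siRNA 2. At 800 nM 1 of them was called without the first or second DMSO library or without the second 800 nM library or the third 800 nM library.

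Among 15 other long noncoding RNAs, 11 could be fitted beside the siRNAs and 9 beside C16, and 3 rose with PKR siRNA 1, 2 fell with PKR siRNA 2, 2 rose with 400 nM, and 2 rose and 2 fell with 800 nM. MEG3, an imprinted RNA, fell with PKR siRNA 2 by 0.76 (SE 0.09) and rose with C16 by 1.88 (SE 0.15) at 400 nM and 1.42 (SE 0.15) at 800 nM, with limma adjusted p from 4.0e-16 to 4.3e-12 in these comparisons and signs opposite to those of MALAT1. LINC00152 rose with 400 nM and 800 nM by 1.32 (SE 0.30) and 1.38 (SE 0.30), and fell with PKR siRNA 2 by 1.06 (SE 0.29), with limma adjusted p of 0.00045, 0.00011 and 0.0014. Its rise with PKR siRNA 1 (0.74, SE 0.29, limma adjusted p = 0.028) was lost without the second control library, the third control library, the first PKR siRNA 1 library or the third PKR siRNA 1 library, with 0.61 to 0.75. LINC-PINT rose with PKR siRNA 1 by 1.28 (SE 0.30, limma adjusted p = 0.00024). FGD5-AS1 fell with 800 nM by 0.70 (SE 0.12, limma adjusted p = 1.4e-06), as MALAT1 was lower there, and had 0.47 with PKR siRNA 2.

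**Figure D5:**
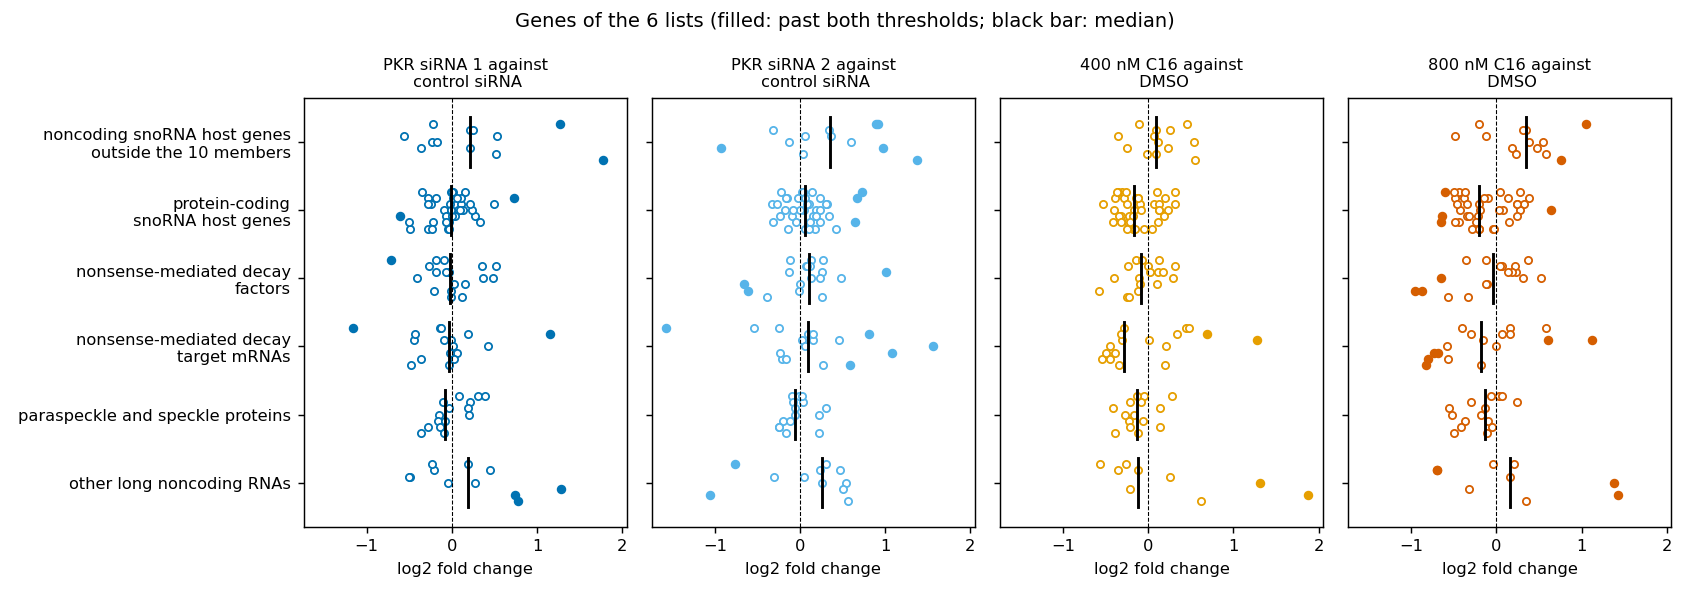
Log2 fold changes (x axis) of the fitted genes of the 6 lists (y axis) in the 4 comparisons with a control, with filled points past both thresholds and a black bar at each list's median. The paraspeckle and speckle proteins hold no filled point, and the other noncoding snoRNA hosts have medians from 0.10 to 0.35.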

How the data were processed

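PANC-1 RNA was sequenced as 75-base paired reads from poly(A) libraries. Per the labels and the paper's methods, the authors used TopHat for mapping (hg38), featureCounts for counting and the TMM method of TCC for scaling, separately for each of the 2 tables. The deposited values are thus a signal, TMM-normalized counts. In every library 100% of them were whole multiples of 1 read (tolerance 0.01), so reads were recovered. In the first PKR siRNA 2 and first 800 nM libraries 1 read was worth nearly 1 (0.99467 and 1.0087). Values there were still not whole numbers, such as 22.877 for 23 reads of SNHG8 and 318.73 for 316 reads of MALAT1. The annotation release and strand setting are not given in the sources used here. The columns of per-sample values that matched no sample numbered 0.

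Log2(normalized count + 1) was fitted with limma 3.58.1 (R 4.3.3; trend, two-sided, the 9 libraries of a table together) for genes whose table mean reached 10, with Benjamini-Hochberg adjustment. Genes past an adjusted p-value of 0.05 and 1.5-fold were called. edgeR 4.0.16 and DESeq2 1.42.0 on the recovered reads were alternatives, and all were tested on simulated reads. Replicates differed by 1.03 to 1.63 in chi-square per degree of freedom and none were merged. Separate cultures are not stated, so SDs and p-values cover the spread between libraries.

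The 10 members and the 6 gene lists were chosen with earlier results of these data known, and the lists were written from memory. SNHG14 and SNHG30 matched no row. Named genes are the members, genes beside or across them, from each list the called gene with the largest rise and fall in each comparison with a control and any called alike in 3 of those 4, the 5 genes most like each profile, and EIF2AK2, except that 1 gene the rule names is not reported here. Exons and starts are those of the deposited tables, whose 86 inner exon ends in these genes all match GENCODE on hg38, and sequences were read from hg38. Other settings were a pseudocount of 0.5 or 5, dropping the filter or raising it to 30, rescaling by median of ratios, only the groups compared, a replicate block, and each library left out.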

Additional observations from a re-analysis of the deposited data

How the results depend on the processing

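Of 1420 recomputed fold changes of the tested genes outside the 10 members, 0 called values changed sign, 16 lost a call and 11 gained one. The members carry no test. Of their 837 recomputed fold changes 9 went from past 1.5-fold to within it (NEAT1, GAS5 and EPB41L4A-AS1). Another 23 went the other way (SNHG8, SNHG12, SNHG15, ZFAS1 and EPB41L4A-AS1), among them SNHG12 at 400 nM with edgeR (0.60) and DESeq2 (0.59). Some small fold changes of members, none of them called, changed sign when a library was left out. Examples are SNHG15 at 400 nM (-0.36 to 0.41) and EPB41L4A-AS1 with PKR siRNA 1 (-0.18 to 0.60). The rise of LINC00152 with PKR siRNA 1 had an adjusted p of 0.073 without the filter and 0.067 with DESeq2, and ZNFX1 had 0.58, under 1.5-fold, with a pseudocount of 5. At 800 nM TRNAU1AP was called with a pseudocount of 0.5, with edgeR and without the third DMSO library or the second 800 nM library (-0.77 and -0.71), and PTBP2 at 400 nM without the first library of that dose (0.83). With a minimum mean of 30, SNHG8, SNHG12 and EPB41L4A-AS1 were not fitted beside the siRNAs, and the members past both thresholds were 1 with PKR siRNA 1 and 2 with PKR siRNA 2. The other noncoding hosts were then 0, 3 and 0 (PKR siRNA 1, PKR siRNA 2 and 800 nM), the decay targets 1 with PKR siRNA 1, and the other long noncoding RNAs 1, 1 and 1 (PKR siRNA 1, PKR siRNA 2 and 400 nM), as fewer genes were tested. At 400 nM the decay factors called were 1 with median-of-ratios rescaling, 1 with edgeR and 1 with DESeq2, and the other long noncoding RNAs 4 with edgeR. With DESeq2 the other noncoding hosts at 800 nM were 1, and all genes called between the doses 188 against 507; the cause was not tested.

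When single libraries were left out, the members past both thresholds numbered 1 to 2 with PKR siRNA 1, 3 to 5 with PKR siRNA 2, 0 to 0 with 400 nM and 3 to 4 with 800 nM. The protein-coding hosts numbered 1 to 2 with PKR siRNA 1, 0 to 1 with 400 nM and 2 to 4 with 800 nM. The decay factors numbered 0 to 1 with 400 nM, the paraspeckle and speckle proteins 0 to 1 and the other noncoding hosts 1 to 3 with 800 nM, and the other long noncoding RNAs 2 to 4 with PKR siRNA 2. The lower counts at 800 nM came without the third DMSO library, the first 800 nM library or the third 800 nM library (other noncoding hosts) and without the first 800 nM library (protein-coding hosts). At 400 nM the decay factor was called without the first DMSO library, the third DMSO library or the second 400 nM library, and the protein-coding host without the third DMSO library. With PKR siRNA 2 the 4 other long noncoding RNAs were called without the third PKR siRNA 2 library.

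Libraries of equal number did not deviate together, with correlations of their deviations from -0.083 to 0.079. Since replicates differed by little more than read sampling (chi-square per degree of freedom 1.03 to 1.63), this cannot decide whether the numbers pair them. A replicate block cannot change a fold change in this balanced design and acts on the p-values alone. With it the members past both thresholds were 2, 4, 0 and 3 in the comparisons with a control, and all genes called 2237, 2489, 1239 and 2554, against 2235, 2493, 1248 and 2561 without it. SNHG8, SNHG12, SNHG15 and EPB41L4A-AS1 rest on few reads, so differences of their size were not firmly measured at this depth.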
